A study of Mus musculus with 21 samples.

Results

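The muscle microRNA loci Mir1a-1, Mir1a-2, Mir133a-1, Mir133a-2, Mir133b and Mir206 are 6 of the 53738 gene symbols quantified in mouse quadriceps before and after exhaustive running. They were chosen by name, after 2 of them had been seen among the strongest falls immediately after exercise: Mir1a-1 in untrained and Mir133a-2 in trained muscle. Their contrasts of 0 h with sedentary muscle were therefore selected on these same libraries and are described here without a test. In brief, Mir133a-2 gave signal in all 15 libraries outside 0 h and had 0 or 1 read pair in 5 of the 6 columns at 0 h, Mir1a-1 was lower and listed at 0 in the untrained 0 h muscles, Mir133a-1 and Mir1a-2 were sparse, and Mir133b and Mir206 were listed at 0 in all 21 libraries.

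All groups were C57/Bl6 wild-type male mice aged 22 to 26 weeks, with 3 libraries of bulk quadriceps RNA each. Sedentary mice did no exercise. Untrained mice ran a single exhaustive treadmill bout and were killed 0 h, 6 h or 72 h later, and trained mice did the same after 12 weeks of voluntary wheel running, with no rest period between training and the bout. The questions put to the loci were how each exercised group differed from sedentary muscle and how trained differed from untrained muscle at each time.

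MicroRNAs are cut from longer primary transcripts, first in the nucleus by Drosha with Dgcr8 and then in the cytoplasm by Dicer, and the mature strand guides an Argonaute protein to messenger RNAs that match its seed. The miR-1 and miR-206 family and the miR-133 family are transcribed as pairs from shared muscle loci under the control of SRF, MEF2 and the myogenic factors, and are known for roles in myoblast proliferation and differentiation. The miR-206 and miR-133b pair is best known from slow, regenerating and denervated muscle. The libraries were made from long RNA with a kit that enriches polyadenylated transcripts, so that the values below are read pairs falling on short precursor loci and are not levels of mature microRNA.

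Mature strands are shown to give a reader the sequences behind the locus names. In RefSeq (GRCm38.p6), 5 mature strands were listed for 3 of the 6 loci, and the seed, bases 2 to 8, is in capitals.
mmu-miR-1a-1-5p: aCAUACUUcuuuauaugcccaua
mmu-miR-206-5p: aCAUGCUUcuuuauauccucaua
mmu-miR-206-3p: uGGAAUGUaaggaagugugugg
mmu-miR-133b-5p: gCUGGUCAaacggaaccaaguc
mmu-miR-133b-3p: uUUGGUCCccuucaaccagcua
The 5p strands of miR-206 and miR-1a-1 matched at 20 of 23 positions and differed by G5A, C17G and U19C, counted from 1 at the 5′ end with the base of miR-206 first. The first of these lies in the seed, so that these 2 5p strands do not share a seed. No 3p strand of miR-1a was listed, so the 3p seeds of miR-1a and miR-206 were not compared.

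In GRCm39 coordinates with GENCODE annotation, Mir1a-1 (chromosome 2, 180030841 to 180030917, plus strand, 77 bases) and Mir133a-2 (chromosome 2, 180040172 to 180040275, plus strand, 104 bases) both lay in introns of the long non-coding RNA Mir1a-1hg, which was not analysed here. Mir133a-2 also lay in an intron of Gm75546 on the opposite strand, and B230312C02Rik ended 2211 bases from Mir1a-1. Mir206 (chromosome 1, 20749234 to 20749306, 73 bases) and Mir133b (chromosome 1, 20752993 to 20753111) lay 3687 bases apart on the plus strand within Lincmd1, a non-coding RNA of muscle. All bases of Mir133b and 60 of the 73 of Mir206 were exonic in it. Mir133a-1 (chromosome 18, 10782909 to 10782976, minus strand, 68 bases) was wholly exonic in the long non-coding RNA Mir133a-1hg. Mir1a-2 (chromosome 18, 10785481 to 10785552, minus strand, 72 bases) was intronic in Mir133a-1hg, shared 8 bases with an exon of Gm58661 and was overlapped from the opposite strand by Mir1b. Both loci lay on the opposite strand within introns of Mib1, a ubiquitin ligase of the Notch pathway. The library kit does not mark strand, so reads of overlapping transcripts on the 2 strands cannot be told apart.

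Before any comparison, the first replicate of untrained and the first of trained muscle at 0 h were found to be identical columns for all 53738 symbols, 25037 of them above 0, which leaves 20 distinct libraries. Levels and differences of the loci at 0 h are therefore given with and without this pair of columns, and other values at 0 h are as deposited unless stated. Values of the loci were also discrete. At the lengths of Mir1a-1 and Mir133a-2, most microRNA loci took whole multiples of a smallest step that lay between 2.74 and 4.36 TPM (transcripts scaled to a fixed total per library), depending on the library, and the step was 1.5 times as high for loci of 50 to 76 bases, such as Mir133a-1 and Mir1a-2. Of the 344 other named microRNA loci above 0, 286 were whole in every library. With 1 step taken as 1 read pair, all 51 values above 0 of the 4 detected loci were whole to within 3.05e-06 of a read pair. The loci thus rested on 175 read pairs for Mir133a-2, 32 for Mir1a-1, 28 for Mir133a-1 and 2 for Mir1a-2 over the 21 columns. Intervals on such counts cover counting error only.

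Mir133a-2, a source of miR-133a, had the highest level of the 6, with a mean of 28.0 TPM over 21 columns, above 85.4% of the tested genes. This rank is in TPM, where 1 read pair at its length gave 2.74 to 4.36 TPM. The mean rests on 175 read pairs over the 21 columns, and a rank by read pairs was not computed. In sedentary muscle it stood at 49.8, 47.9 and 26.1 TPM. At 0 h the untrained libraries had 3.96, 3.33 and 3.53 TPM and the trained ones 3.96, 0 and 13.7 TPM, the first value of each being the identical column. Each of these 6 values lay below the lowest sedentary one. The loci were chosen on falls at 0 h, and the share of all genes separated in this way was not computed, so nothing is read from it. Untrained libraries at 6 h had 54.5, 27.9 and 21.98 TPM, and trained ones had 31.4, 46.7 and 26.5 TPM. By 72 h the values were 39.0, 39.4 and 10.9 TPM without and 53.1, 54.6 and 29.9 TPM with training. All 4 later groups overlapped with the sedentary libraries.

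**Figure D1:**
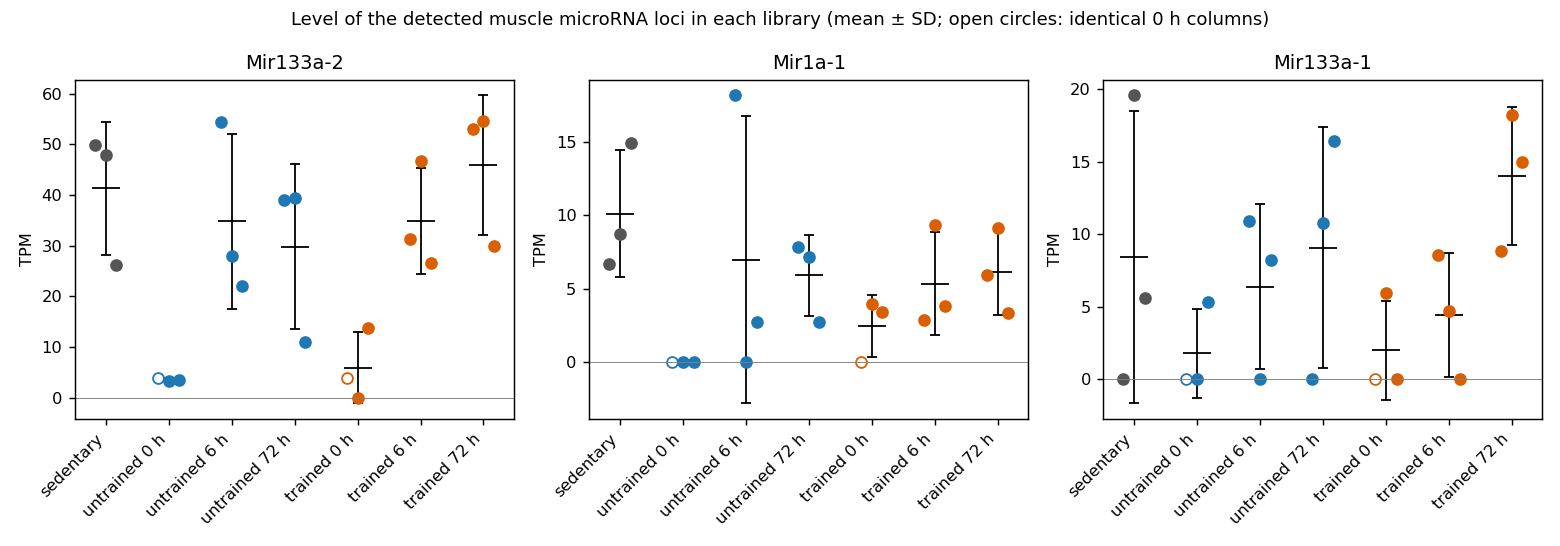
Level in TPM (y axis) of Mir133a-2, Mir1a-1 and Mir133a-1 in each library of the 7 groups (x axis), with the mean and SD of 3 libraries as bars and the pair of identical columns as open circles. The 6 values of Mir133a-2 at 0 h lie at or below 13.7 TPM and the sedentary ones at or above 26.1 TPM, whereas Mir133a-1 has values at 0 in 6 of the 7 groups.

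In read pairs, Mir133a-2 had 15, 11 and 7 in sedentary muscle. At 0 h the untrained libraries held 1, 1 and 1 and the trained ones 1, 0 and 4. The summed 33 read pairs of the sedentary libraries have an exact Poisson 95% interval of 22.7 to 46.3. It is 0.619 to 8.77 for the 3 of untrained and 1.62 to 11.7 for the 5 of trained muscle at 0 h. The sums at 0 h both count the identical column. These intervals leave out the spread between libraries and are no test of the fall, on which the loci were chosen. The group means were 41.3 TPM ± 13.2 (SD, n = 3) in sedentary, 3.61 ± 0.324 in untrained 0 h and 5.87 ± 7.03 in trained 0 h muscle. Without the identical columns, the 0 h means of the remaining pairs of libraries were 3.43 TPM ± 0.142 (untrained) and 6.83 ± 9.66 (trained; SD, n = 2).

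Ordered by mean, Mir133a-2 ran from trained 72 h (45.9 TPM ± 13.8) through sedentary, trained 6 h (34.9 ± 10.5), untrained 6 h (34.8 ± 17.3) and untrained 72 h (29.8 ± 16.3) to trained 0 h and untrained 0 h. Neighbours in this order overlapped throughout. This includes the step from untrained 72 h to trained 0 h, where the lowest later library (10.9 TPM) lay under the highest 0 h library (13.7 TPM).

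Mir1a-1, a source of miR-1a and the partner of Mir133a-2 in the same host, averaged 5.26 TPM and was above 0 in 16 of 21 libraries. The sedentary values were 6.64, 8.72 and 14.9 TPM, from 2, 2 and 4 read pairs. In untrained muscle at 0 h it was listed at 0 in all 3 columns, of which 2 do not depend on the identical pair, for which the exact Poisson 95% interval ends at 3.69 read pairs and the one-sided limit is 3. In trained muscle at 0 h the values were 0 for the identical column, then 3.94 and 3.41 TPM, each of these a single read pair. All 6 columns at 0 h, the identical one counted in both groups, lay below the sedentary range. As for Mir133a-2, nothing is read from this separation, because the loci were chosen on such falls.

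Later values of Mir1a-1 were scattered. Untrained libraries at 6 h had 18.2, 0 and 2.75 TPM and trained ones 2.85, 9.34 and 3.79 TPM, so that both the highest value of the series and a 0 fell within 1 group. By 72 h untrained libraries had 7.79, 7.16 and 2.74 TPM and trained ones 5.89, 9.11 and 3.32 TPM. These 4 groups overlapped with the sedentary libraries and with the 2 trained 0 h libraries above 0. By mean, the order was sedentary (10.1 TPM ± 4.31, SD, n = 3), untrained 6 h (6.97 ± 9.79), trained 72 h (6.11 ± 2.90), untrained 72 h (5.90 ± 2.76), trained 6 h (5.33 ± 3.51) and trained 0 h (2.45 ± 2.14), with all neighbours overlapping.

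Mir133a-1, the other source of miR-133a, averaged 6.57 TPM and was above 0 in 13 of 21 libraries, with at most 4 read pairs in any of them. Sedentary muscle alone spanned 0, 19.6 and 5.60 TPM. Untrained libraries had 0, 0 and 5.29 TPM at 0 h, 10.9, 0 and 8.24 TPM at 6 h and 0, 10.7 and 16.4 TPM at 72 h. Trained libraries had 0, 5.91 and 0 TPM at 0 h, 8.55, 4.67 and 0 TPM at 6 h and 8.84, 18.2 and 15.0 TPM at 72 h. Trained 72 h was the only group with signal in all 3 libraries, and every group overlapped with sedentary muscle. By mean, the order was trained 72 h (14.0 TPM ± 4.76, SD, n = 3), untrained 72 h (9.05 ± 8.34), sedentary (8.40 ± 10.1), untrained 6 h (6.38 ± 5.68), trained 6 h (4.41 ± 4.28), trained 0 h (1.97 ± 3.41) and untrained 0 h (1.76 ± 3.06), and each neighbouring pair overlapped.

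Mir1a-2, the other source of miR-1a, was above 0 in sedentary replicate 1 (4.98 TPM) and untrained 72 h replicate 2 (5.37 TPM), 1 read pair each. Its partner on the opposite strand, Mir1b, was above 0 in 6 libraries with 8 read pairs in all, none of them sedentary or at 0 h. Mir206 and Mir133b were listed at 0 throughout, and Lincmd1, which contains both, had group means between 0.0394 TPM (trained 0 h) and 0.363 TPM (untrained 72 h), too low for the test. Of other loci of muscle-enriched microRNAs, Mir208a, Mir208b and Mir499 were also listed at 0, and Mir486 averaged 7.32 TPM with a highest value of 19.6 TPM.

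Differences of log2(TPM + 0.5) were estimated with limma over 11819 genes that averaged 1 TPM or more. A call required both an adjusted p under 0.05 and a change of 1.5-fold or more. Mir1a-1, Mir133a-1 and Mir133a-2 passed this filter, and Mir1a-2, Mir133b and Mir206 did not. As a description, Mir133a-2 was lower than in sedentary muscle by −3.29 (SE 0.83) in untrained and −3.67 (SE 0.83) in trained muscle at 0 h. Mir1a-1 had estimates of −4.33 and −2.29 (SE 1.005 each) and Mir133a-1 of −1.80 and −1.75 (SE 1.725 each). The value of −4.33 is set largely by the 0.5 added to listed zeros and is no bound on the size of the fall. Without the identical columns the estimates were −1.27 (SE 1.036) for Mir1a-1 in trained muscle, and −1.21 and −1.14 (SE 2.004 each) for Mir133a-1 in untrained and trained muscle. By the rule above, 2 of the 3 tested loci were called at 0 h in untrained muscle, where 3.59% of all tested genes were called, and 1 of 3 in trained muscle, where 3.74% were. The choice of the loci fixed these counts, so nothing is read from them.

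As a further description, the libraries behind these 0 h values were left out in turn. The loci were chosen on these contrasts, so a call that was kept is no support for the fall. In untrained muscle the call of Mir133a-2 was lost without the identical columns (−3.35, SE 0.99), without any 1 of the 3 untrained 0 h libraries, or without sedentary replicate 1 or 2, and Mir1a-1 kept its call in each of these fits. In trained muscle the call of Mir133a-2 held without the identical columns (−3.92, SE 0.99) and was lost without sedentary replicate 2. Without trained 0 h replicate 3, the library with 4 read pairs, the estimate for trained muscle became −4.75, and without replicate 2, the one at 0, it became −2.34.

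**Figure D2:**
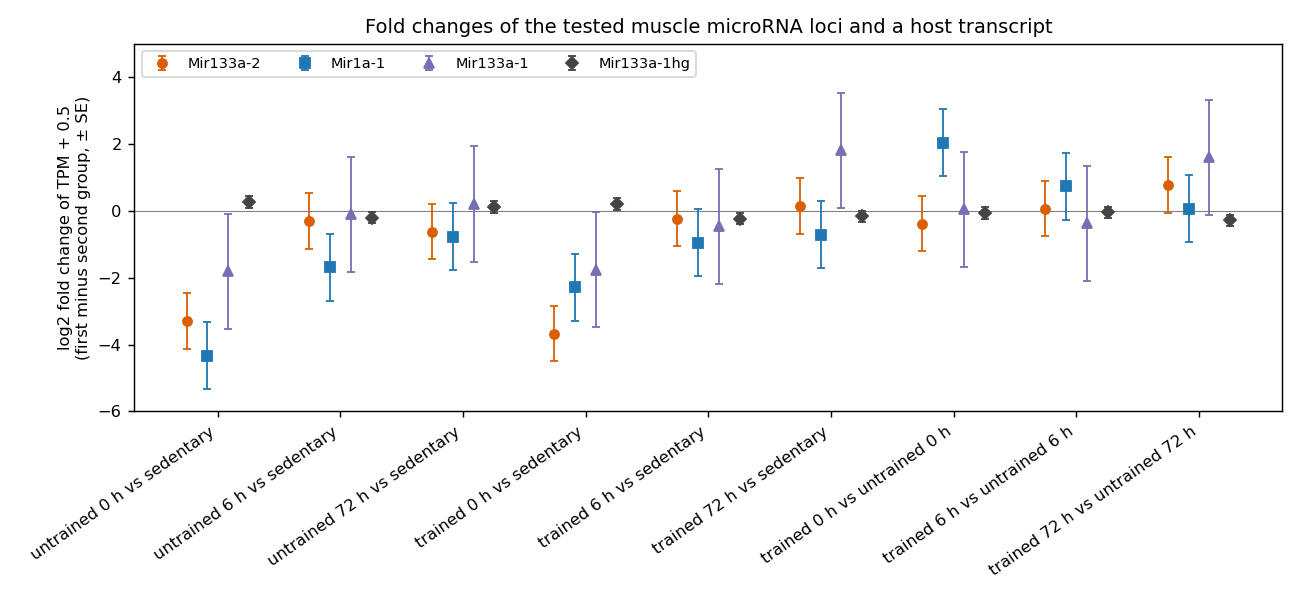
Log2 fold change of TPM + 0.5 with its standard error (y axis) in each of the 9 comparisons (x axis) for Mir133a-2, Mir1a-1, Mir133a-1 and the host transcript Mir133a-1hg. Mir133a-2 lies at −3.29 and −3.67 at 0 h and between −0.62 and 0.16 against sedentary muscle at 6 h and 72 h, and Mir133a-1hg lies between −0.28 and 0.27.

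At 6 h and 72 h none of the 3 tested loci was called against sedentary muscle, whose libraries are shared with the contrasts at 0 h. The share of all tested genes called was 4.42% in untrained and 3.85% in trained muscle at 6 h, and 0.00846% and 0.169% at 72 h. Mir133a-2 differed by −0.30 (adjusted p = 0.904) and −0.22 (0.910) at 6 h and by −0.62 (0.9635) and 0.16 (0.971) at 72 h, in untrained and trained muscle respectively (SE 0.83). The lowest adjusted p of this group was that of Mir1a-1 in untrained muscle at 6 h (−1.69, SE 1.005, adjusted p = 0.364). There, leaving out untrained 6 h replicate 1, the library with 5 of the group's 6 read pairs, gave −2.98 with an adjusted p of 0.0393 and a call.

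Nor did any tested locus pass between trained and untrained muscle. Mir133a-2 differed by −0.37 at 0 h, 0.07 at 6 h and 0.77 at 72 h (SE 0.83, adjusted p = 1, 0.987 and 0.716), where 0%, 2.01% and 0.245% of all tested genes were called. Mir1a-1 differed by 2.04, 0.74 and 0.06 (SE 1.005, adjusted p = 1, 0.763 and 0.994) and Mir133a-1 by 0.05, −0.36 and 1.61 (SE 1.725, adjusted p = 1, 0.953 and 0.715). Over these 7 comparisons of 3 loci, 0 of 21 tests by limma had an unadjusted p below 0.05. Of all 11819 genes, between 143 and 2854 did so in a single comparison of the 7, the highest being trained 6 h against sedentary muscle. The lowest was that of training states at 0 h, where no gene was called. It has the identical columns on both sides, and it compares the 0 h libraries on which the loci were chosen. Nothing is therefore read from the tests of the loci in that comparison, which are among the 21. Without the identical columns Mir1a-1 differed by 3.06 (SE 1.135), with an unadjusted limma p of 0.01762 and an adjusted p of 1. Mir133a-2 differed by −0.56, while 528 genes had an unadjusted p below 0.05 and none was called. With standard errors of 0.83 to 1.725, a difference of 1 on the log2 scale was not detectable at this depth.

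The spread of the loci between libraries of a group was wide. Pooled over the 7 groups, the within-group SD of log2(TPM + 0.5) was 1.08 for Mir133a-2, 1.31 for Mir1a-1 and 2.24 for Mir133a-1, against a median of 0.139 for 9691 protein-coding genes. Other short features were alike in this. The median was 1.57 over 126 other named microRNA loci and 1.61 over 453 other loci of 50 to 120 bases. In read pairs, the pooled within-group variance divided by the mean was 1.61, 1.06 and 1.11 for Mir133a-2, Mir1a-1 and Mir133a-1, where counting alone would give a value near 1.

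**Figure D3:**
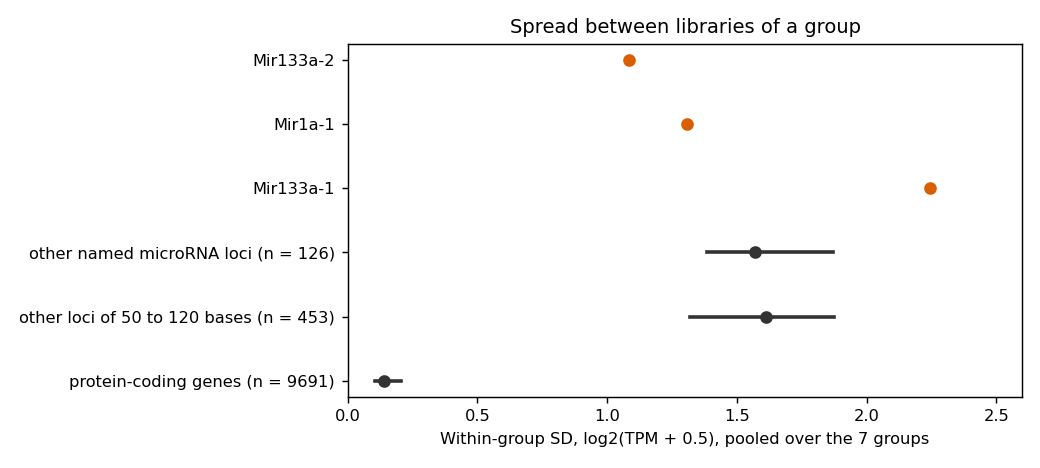
Within-group SD of log2(TPM + 0.5), pooled over the 7 groups (x axis), for the 3 tested loci and as median with quartiles for 3 classes of other tested genes (y axis). Mir133a-2 (1.08) and Mir1a-1 (1.31) lie under the median of other microRNA loci (1.57), Mir133a-1 (2.24) lies over it, and protein-coding genes have a median of 0.139.

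The low level at 0 h was next set beside other short loci in the same libraries. The 6 muscle loci together held 1, 1 and 2 read pairs in the untrained and 1, 2 and 5 in the trained 0 h libraries, and between 8 and 25 in each of the 15 other libraries. The muscle loci were chosen on falls at 0 h and the other loci were not, so nothing is read from this separation. The 286 other microRNA loci that were whole in every library, leaving out the 5 highest of them, held 113 to 172 read pairs at 0 h and 105 to 179 elsewhere, so these ranges overlapped. Of the 126 other tested microRNA loci, 3 were called higher and 1 lower in untrained 0 h muscle, with a median of −0.08, and 2 were called higher and 1 lower in trained 0 h muscle, with a median of −0.03. Of the 453 other tested loci of 50 to 120 bases, which include microRNA loci of that length, 5 were called higher and 16 lower in untrained muscle at 0 h. In trained muscle 6 were called higher and 7 lower. Called falls among short loci were thus not limited to the muscle microRNAs. Of all 11819 tested genes, 351 were called higher and 73 lower in untrained and 401 higher and 41 lower in trained muscle at 0 h. The medians over all tested genes were 0.10 and 0.13 in these comparisons and were −0.004 and −0.003 after median-of-ratios scaling, and were 0.08 and 0.12 without the identical columns. The 453 tested loci of 50 to 120 bases nonetheless held, as a sum, a smaller share of TPM at 0 h (6.76 to 8.54%) than elsewhere (9.42 to 12.2%). The mitochondrial genome held 37.7 to 40.6% against 40.6 to 48.0%. These shares overlap, because the 453 loci include mitochondrial transfer RNAs such as mt-Tr and mt-Tl2. The part of these shares in the result was not tested.

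**Figure D4:**
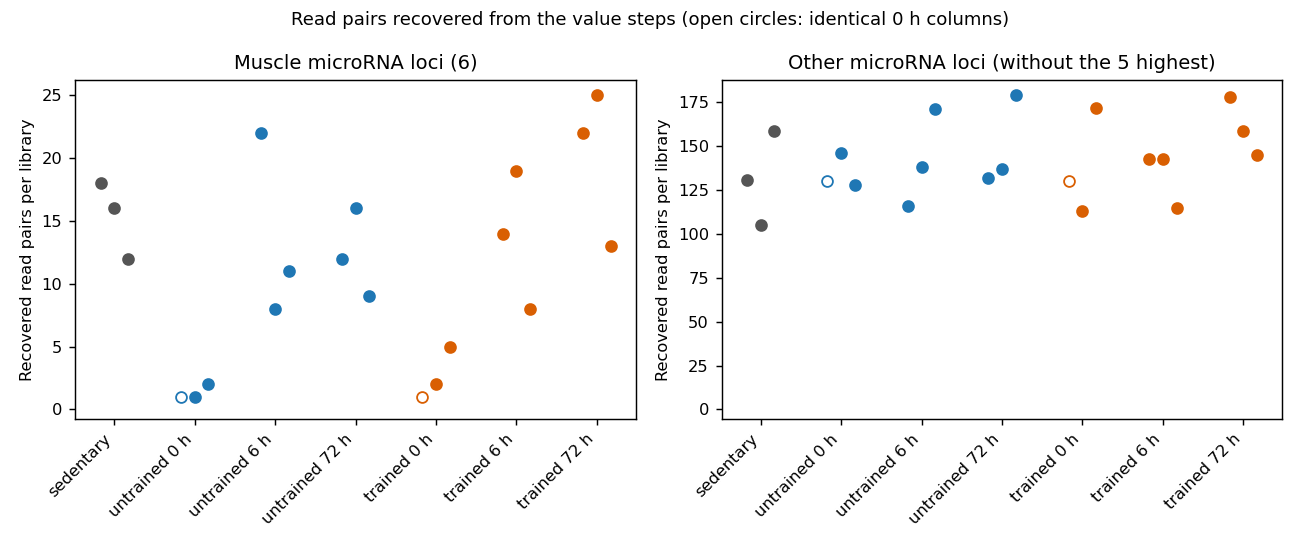
Read pairs per library recovered from the value steps (y axis) for the 6 muscle microRNA loci together (left) and for the other microRNA loci that were whole in every library, without the 5 highest (right), by group (x axis), with the identical columns as open circles. The muscle loci, which were chosen on falls at 0 h, hold 1 to 5 read pairs at 0 h and 8 to 25 elsewhere. The other loci, not chosen in this way, hold 113 to 172 and 105 to 179.

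Markers of skeletal muscle were abundant. The fibre genes Acta1, Ckm, Myh4 and Tnnt3 averaged 5629 TPM or more, while the cardiac genes Myh6, Nppa and Tnni3 averaged at most 0.575 TPM and the fourth cardiac gene, Tnnt2, 1.87 TPM. The 5 skeletal fibre genes summed to between 59912 and 66525 TPM at 0 h and to between 49006 and 58840 TPM elsewhere. The remaining gene of these 5, Mb, averaged 1815 TPM and did not follow the sum. Its means were 1672 TPM in sedentary, 1504 TPM in untrained 0 h and 1599 TPM in trained 0 h muscle, with overlapping libraries. Of the 5, only Mb was called, and only between training states at 6 h, being higher after training. There 2.01% of all tested genes were called. The 5 slow fibre genes summed to between 304 and 572 TPM in sedentary, 166 and 216 TPM in untrained 0 h and 170 and 441 TPM in trained 0 h muscle, and 1 of them, Myl3, was called lower in untrained muscle at 0 h and 6 h. Of 3 endothelial genes, Kdr was called lower at 0 h in both states. Macrophage genes were called higher in untrained muscle, 2 of 3 tested at 6 h and 1 of 3 at 72 h. Of all tested genes, 3.59% and 3.74% were called at 0 h in untrained and trained muscle. At 6 h it was 4.42% and 3.85%, and at 72 h 0.00846% in untrained muscle. Of the markers of denervation, Musk was called higher at 6 h in both states (1.67 and 1.58), Chrne differed by −0.46 and −0.44 and Chrna1 by −0.28 and −0.10 without a call, and Chrng stayed at or below 0.315 TPM. The satellite cell genes Pax7 and Myf5 stayed at or below 0.560 TPM, and Cdh15 averaged 3.18 TPM and differed by 0.37 in untrained 0 h muscle (limma, adjusted p = 0.0348, under the 1.5-fold threshold). These 3 genes summed to 4.10 to 4.77 TPM at 0 h and 3.05 to 4.36 TPM elsewhere. No red blood cell gene was called. The part of these cell types in the values of the microRNA loci was not tested, and in bulk tissue fewer cells of a type and less RNA per cell cannot be told apart.

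Among overlapping transcripts, Mir133a-1hg, the host of Mir133a-1 and Mir1a-2, averaged 17.4 TPM. It stood at 16.96, 15.3 and 19.3 TPM in sedentary muscle, at 24.6, 18.4 and 19.7 TPM in untrained 0 h and at 24.6, 17.2 and 18.6 TPM in trained 0 h muscle. The differences from sedentary muscle were 0.27 (adjusted p = 0.339) and 0.21 (0.429) at 0 h (SE 0.17), became 0.15 and 0.06 without the identical columns, and Mir133a-1hg was called in none of the 9 comparisons. Its sign at 0 h was thus opposite to that of Mir133a-1, a difference between the 2 loci that was not itself tested. B230312C02Rik, next to Mir1a-1, averaged 1.93 TPM and was likewise not called.

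Mib1 behaved otherwise. It stood at 12.8, 12.7 and 12.7 TPM in sedentary, at 10.7, 16.2 and 12.8 TPM in untrained 6 h and at 6.26, 5.39 and 3.61 TPM in trained 6 h muscle. The trained 6 h libraries overlapped with neither of the other groups. Mib1 fell by 1.28 on the log2 scale against sedentary muscle (SE 0.23, adjusted p = 0.0020) and by 1.31 against untrained 6 h muscle (adjusted p = 0.0031), while Mir133a-1 in its intron had values of −0.46 and −0.36 in the same comparisons and was not called.

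**Figure D5:**
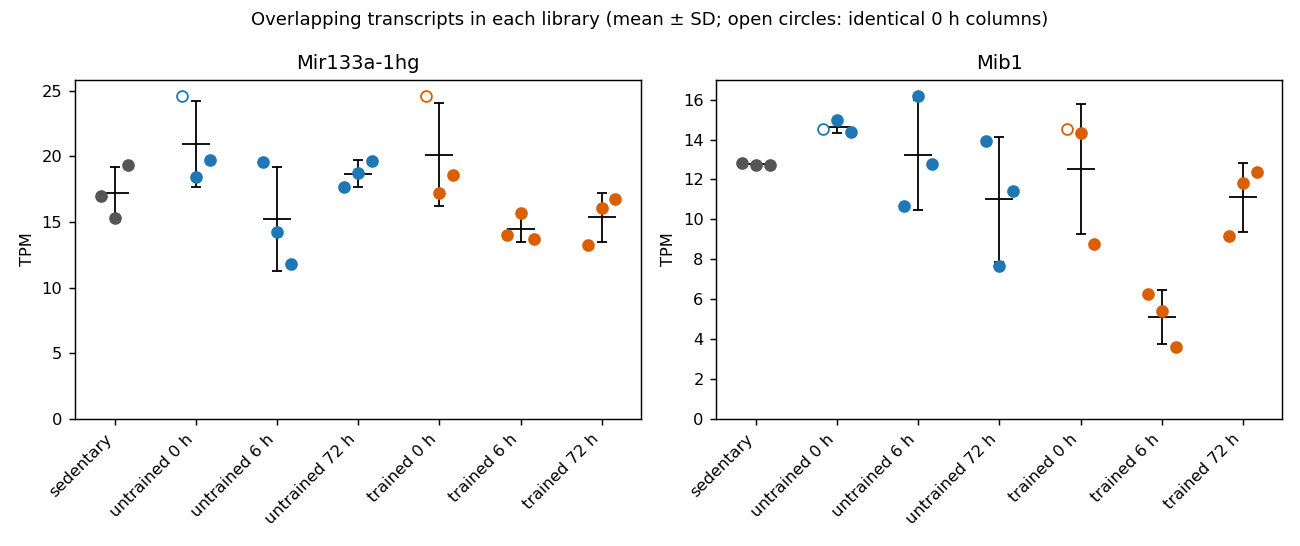
Level in TPM (y axis) of Mir133a-1hg and Mib1 in each library of the 7 groups (x axis), with the mean and SD of 3 libraries as bars and the identical columns as open circles. Mir133a-1hg stays between 11.8 and 24.6 TPM, and the trained 6 h libraries of Mib1 (3.61 to 6.26 TPM) lie below all other libraries.

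Genes upstream of the loci were measured with unequal precision. Of 16 genes of microRNA processing, 15 were tested and 0 were called in any comparison by limma, with 12 of 135 tests below an unadjusted p of 0.05. Of all 11819 tested genes, 143 (training states, 0 h) to 3217 (trained 0 h against sedentary) lay below it in a single comparison. The share of all genes pooled over the comparisons was not computed, so nothing is read from the 12. The RNA helicases Ddx5 and Ddx17, which assist Drosha, averaged 106 and 23.0 TPM, Ran, which drives export of precursors, 23.6 TPM and Tarbp2, a Dicer partner, 11.3 TPM. At 0 h Ddx5 differed from sedentary muscle by 0.18 and 0.24 (SE 0.12) in untrained and trained muscle, Ddx17 by −0.35 and −0.28 (SE 0.10), Ran by 0.29 and 0.29 (SE 0.10) and Tarbp2 by 0.08 and 0.09 (SE 0.06). The median over the list was 0.05 and 0.11, beside 0.10 and 0.13 over all tested genes. Dicer1 was scattered, at 0.164, 2.79 and 0.987 TPM in untrained 6 h and 0.611, 2.56 and 0.192 TPM in trained 72 h muscle. Dgcr8 stood at 2.47, 6.80 and 2.61 TPM in sedentary muscle. For such genes the absence of a call says little.

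Of 11 transcription factors known to act on these loci, 9 were tested and 3 were called, all of them myogenic factors. Per comparison, 2 of 9 were called in untrained 0 h, trained 0 h and untrained 6 h muscle. Of all tested genes, 3.59%, 3.74% and 4.42% were called there. Between training states at 6 h it was 1 of 9, beside 2.01%. Shares of genes called in any comparison were not computed. Myog, myogenin, rose by 1.72 (SE 0.27, adjusted p = 0.0006) in untrained and by 2.11 (adjusted p = 0.0001) in trained muscle at 0 h, from 0.826, 0.724 and 1.27 TPM in sedentary muscle to 6.18, 2.84 and 4.12 TPM and 6.18, 7.39 and 3.91 TPM. Without the identical columns the differences were 1.47 and 2.05, and both calls held. Myf6, also called MRF4, rose by 1.25 (SE 0.16, adjusted p = 0.0001) in untrained muscle at 6 h, and was lower in trained than in untrained muscle at that time by −0.84 (adjusted p = 0.0053). Its smaller differences at 0 h (0.61 and 0.72) passed as deposited and did not under median-of-ratios scaling (0.49 and 0.57), and that of untrained muscle was also lost without the identical columns (0.48, adjusted p = 0.139). Myod1, the muscle determination factor, rose by 1.49 (SE 0.31, adjusted p = 0.0055) in untrained muscle at 6 h. Srf differed by 0.24 and 0.33 (SE 0.12), Mef2a by 0.11 and 0.17 (SE 0.09), Mef2c by −0.06 and 0.02 (SE 0.10) and Mef2d by 0.18 and 0.21 (SE 0.09) at 0 h, none of them called.

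Downstream, 2 of 5 tested genes reported as targets of miR-1 or miR-206 were called, each in 1 comparison. In these, untrained 0 h and untrained 6 h against sedentary muscle, 3.59% and 4.42% of all tested genes were called. Gja1, the gap junction protein connexin 43, rose by 0.71 (SE 0.21, adjusted p = 0.048) in untrained muscle at 0 h, and Igf1, a muscle growth factor, by 0.83 (SE 0.25, adjusted p = 0.0449) in untrained muscle at 6 h. Both calls were marginal. Gja1 was not called under median-of-ratios scaling (0.60, adjusted p = 0.093). Without the mitochondrial genome and the 10 highest genes neither was called, at 0.61 (adjusted p = 0.154) and 0.83 (0.0617). Nor was either called without the identical columns, at 0.85 (adjusted p = 0.0527) and 0.83 (0.0677). The others tested were Hdac4, Twf1 and Ccnd1, at −0.01, −0.24 and 0.05 at 0 h in untrained muscle and at 0.31, −0.16 and 0.00 after training. Of 6 tested targets reported for miR-133, 0 were called by limma, with 8 of 54 tests below an unadjusted p of 0.05. Of all 11819 tested genes, 143 to 3217 lay below it in a single comparison. A pooled share of all genes was not computed, so nothing is read from the 8. At 0 h Cdc42 differed by 0.09 and 0.14 (SE 0.07), Rhoa by 0.27 and 0.31 (SE 0.15), and Ucp2, a mitochondrial carrier, by 0.21 and 0.53 (SE 0.13), in untrained and trained muscle. The medians of the miR-1 list were 0.05 and 0.31 and those of the miR-133 list 0.22 and 0.32 at 0 h, beside 0.10 and 0.13 over all tested genes.

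Genes whose log2(TPM + 0.5) was most like that of each locus were listed as a description over the 20 distinct libraries, which share depth and composition. For Mir133a-2 they were Kcnj2, an inward rectifier potassium channel (Pearson r = 0.845), Gm45047 (0.830) and Srsf5, a splicing factor (0.825). Kcnj2 stood at 9.23, 8.05 and 10.1 TPM in sedentary muscle, at 4.03, 4.65 and 6.70 TPM in untrained 0 h and at 4.03, 3.47 and 6.68 TPM in trained 0 h muscle. These genes were picked by likeness over the same libraries, so low 0 h values here and below follow from the choice. For Mir1a-1 they were the mitochondrial transfer RNAs mt-Tr (0.772), mt-Tl2 (0.768) and mt-Tf (0.766). Their means went from 1387, 1322 and 13.07 TPM in sedentary muscle to 368, 414 and 0 TPM in untrained and 624, 638 and 7.09 TPM in trained muscle at 0 h. For Mir133a-1 they were Ctc1 (0.719), H2-Q7 (0.658) and Parp10 (0.653). Between the loci themselves r was 0.559 for Mir1a-1 with Mir133a-2, 0.446 for Mir1a-1 with Mir133a-1 and 0.181 for Mir133a-1 with Mir133a-2.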

How the data were processed

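Bulk quadriceps RNA-seq of 21 libraries was used. The authors mapped paired-end reads to GRCm39 with STAR 2.7.9 and quantified them with salmon 1.5.0, and deposited gene values in TPM; per the labels, DESeq2 (given as version 3.16) was also among their tools. Read depth is not given in the sources used here, and 997304 to 997921 TPM remained per library. Whether libraries come from separate mice is not stated, so p-values measure the spread between libraries. The loci and gene lists were chosen with earlier results of these data known. Values of microRNA loci were divided by the library's step for their length class and rounded (tolerance 0.02). The 7 group means were fitted to log2(TPM + 0.5) with limma 3.58.1 (variance trend, Benjamini-Hochberg adjustment within a comparison over the 11819 genes averaging 1 TPM or more), called at adjusted p under 0.05 and at least 1.5-fold. On simulated data for trained 6 h against sedentary muscle, 93% of 100 genes changed by a log2 value of 1 and 100% of 100 changed by 2 were recovered among 11819, with 3 false calls. The changed genes were drawn only from those with a within-group SD under 0.5. The tested loci, at 1.08 to 2.24, were outside that range, so these shares do not apply to them. Alternatives were other pseudocounts, filters, scalings, variance models, a replicate block and left-out libraries. Genes were named by a rule: the 6 loci, annotated genes within 5000 bases, called list genes with up to 4 others of highest mean, and the 3 genes most alike per tested locus. Dicer1 and Dgcr8 were named in addition for their spread. Coordinates are those of GENCODE vM39.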

Additional observations from a re-analysis of the deposited data

Results flagged for a closer look

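Mib1, which overlaps Mir133a-1 and Mir1a-2 on the opposite strand, differed between training states at 6 h. The direct test of trained against untrained 6 h muscle gave −1.31 on the log2 scale (limma, adjusted p = 0.0031), lower in 3 of 3 trained libraries, which stood at 6.26, 5.39 and 3.61 TPM. When only the groups compared entered the fit the estimate stayed at −1.31 and the call was lost (adjusted p = 0.165), with 4 residual degrees of freedom in place of 14.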

How the results depend on the processing

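Calls of the loci against sedentary muscle changed with the processing; those at 0 h describe contrasts by which the loci were chosen and are no sign of stability. At 0 h in untrained muscle 2 loci were called as deposited and 1 with a pseudocount of 0.1 or without the identical columns, and leaving out 1 library gave 1 to 2. At 0 h in trained muscle 1 was called, and 0 when only the groups compared entered the fit, and leaving out 1 library gave 0 to 1. In untrained muscle at 6 h, where 0 were called, leaving out 1 library gave 0 to 1. Of the reported miR-1 and miR-206 targets, 2 were called, against 1 under median-of-ratios scaling and 0 without the mitochondrial genome and top 10 genes or without the identical columns. Of the miR-133 targets 0 were called, and 1 (Ucp2) without the identical columns. Beyond the smaller number of libraries in the last of these fits, the cause was not tested.

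Estimates that turned their sign did so when 1 library was left out, and none of them was called. For Mir1a-1 the ranges were −0.58 to 2.03 (trained against untrained, 6 h) and −0.37 to 0.41 (72 h). For Mir133a-1 they were −1.59 to 1.34 (untrained 6 h), −1.28 to 1.81 (untrained 72 h) and −1.95 to 0.79 (trained 6 h) against sedentary muscle, and −1.18 to 1.23 (0 h) and −1.80 to 0.89 (6 h) between training states. For Mir133a-2 they were −0.14 to 0.44 (trained 72 h against sedentary), and −1.46 to 0.96 (0 h) and −0.20 to 0.45 (6 h) between training states. Same-numbered libraries correlated weakly (−0.0696 to 0.134 over 26 pairs), so the numbers were not taken to pair them; with the replicate block 2 loci were called in untrained and 1 in trained muscle at 0 h and 0 elsewhere, as without it. Outside Mir133a-2, no library held more than 5 read pairs at any 1 of the loci.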
